A study of Mus musculus with 9 samples.

Results

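The 31 genes described here are transcripts that astrocytes carry at higher levels than most other brain cells, and they were taken by symbol from a count table of 27179 genes. All 31 were found in the table, and all 31 passed the filter on low counts that left 17344 genes for testing. The RNA came from whole tissue, punched out of the paraventricular nucleus of the hypothalamus (PVN), the nucleus that holds vasopressin, oxytocin, corticotropin-releasing hormone and thyrotropin-releasing hormone neurons, and was sequenced in bulk. The mice were wild type males of the C57BL/6 strain (C57BL/6J in the study's methods), 9 in all, with 3 mice in each of 3 groups and 1 library per mouse. Control mice were kept on a diet with 16% of calories from fat, HFD mice on a diet with 60% of calories from fat, and HFD+Mino mice on the 60% diet with minocycline, an antibiotic that also dampens microglia, at 40 mg/kg per day in the drinking water for the last 6 weeks. The diets began at 5 weeks of age and lasted 12 weeks, while the sample labels give postnatal day 35 as the age of every mouse, which is the age at the start of the diets. There was no group that received minocycline on the Control diet, so an effect of the drug by itself cannot be told apart from its effect under the HFD.

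Astrocytes take up glutamate and GABA released by neurons, recycle them through glutamine, clear potassium and water through channels and gap junctions at their endfeet on blood vessels, and supply neighbouring cells with lipids and lactate. Under injury, inflammation or overfeeding they can turn reactive, a state known for more of the intermediate filament proteins GFAP and vimentin. The transcription factors SOX9 and NFIA start the astrocyte programme in development, and bone morphogenetic proteins, acting through receptors such as BMPR1B, and the cytokine pathway through STAT3 push precursors towards it.

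Promoter sequences were examined because the differences of the members, described below, had opposite signs. RefSeq promoter windows, 250 bases before to 50 bases after a transcript start in GRCm38.p6, matched 28 of the 31 members with 38 windows, and Sox9, Clu and Aqp4 had no entry. Shown 5′ to 3′ are the Bmpr1b window at chr3:141982215-141982514 (minus strand, the first of its 3 windows), the Slc6a11 window at chr6:114130991-114131290 (plus strand), the F3 window at chr3:121723287-121723586 (plus strand) and the Gfap window at chr11:102897151-102897450 (minus strand). Bmpr1b was chosen as a member that passed the test, Slc6a11 and F3 as members with large differences of opposite sign, and Gfap as the marker of the cell type. Capitals mark matches, on either strand, to the STAT motif TTCNNNGAA, the NFI half-site TTGGC or the SOX core ACAAT.
Bmpr1b: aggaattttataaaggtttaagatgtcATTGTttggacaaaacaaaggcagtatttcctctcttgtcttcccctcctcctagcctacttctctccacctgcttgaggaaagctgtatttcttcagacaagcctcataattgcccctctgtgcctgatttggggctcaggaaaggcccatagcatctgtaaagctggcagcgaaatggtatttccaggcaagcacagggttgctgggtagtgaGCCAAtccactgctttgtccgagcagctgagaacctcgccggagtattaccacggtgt
Slc6a11: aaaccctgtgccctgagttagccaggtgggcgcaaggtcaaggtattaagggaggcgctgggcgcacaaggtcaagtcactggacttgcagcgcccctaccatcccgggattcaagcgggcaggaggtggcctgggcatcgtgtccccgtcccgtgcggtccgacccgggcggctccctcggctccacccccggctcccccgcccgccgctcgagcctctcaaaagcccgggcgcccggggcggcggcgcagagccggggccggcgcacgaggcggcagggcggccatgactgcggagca
F3: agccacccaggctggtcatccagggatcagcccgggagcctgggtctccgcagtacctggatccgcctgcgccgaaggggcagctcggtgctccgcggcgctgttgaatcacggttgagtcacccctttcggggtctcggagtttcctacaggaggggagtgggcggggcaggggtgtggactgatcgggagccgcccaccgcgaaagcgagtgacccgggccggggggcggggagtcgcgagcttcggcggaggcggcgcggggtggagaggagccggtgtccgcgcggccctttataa
Gfap: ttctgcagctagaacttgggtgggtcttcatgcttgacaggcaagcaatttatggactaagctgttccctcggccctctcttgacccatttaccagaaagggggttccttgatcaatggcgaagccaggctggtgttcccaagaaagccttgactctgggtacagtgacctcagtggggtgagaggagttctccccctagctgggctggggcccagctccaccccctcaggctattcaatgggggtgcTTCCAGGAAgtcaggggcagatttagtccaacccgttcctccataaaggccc

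The Gfap window held a STAT match, TTCCAGGAA, which began 2 bases before the start and ran across it. The Bmpr1b window held a reversed NFI half-site beginning 8 bases and a reversed SOX core beginning 223 bases before the start. Neither the Slc6a11 nor the F3 window held any of the 3 motifs, and both were rich in GC (72.3% and 70.3%, with 32 CpG each) where the Bmpr1b and Gfap windows were not (48.3% and 55.7%, with 5 and 3 CpG). Short motifs are common, and the NFI half-site occurred in 46.7% of the 32851 windows of all genes and in 20 of the 38 member windows, the SOX core in 31.02% of all windows and in 9 member windows, and the STAT motif in 8.30% of all windows and in 6 member windows. A match says only that these letters stand in the window.

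The libraries held from 17728590 to 42326213 counts, and the 31 members together took from 1.56% to 2.07% of them. Reads carried no molecular identifiers, so the errors given here come from the spread between mice. Levels are CPM, the counts of a gene relative to the total of its library, scaled by the trimmed mean of M-values (TMM), and differences are log2 ratios with the standard error from edgeR. A member was called changed at an adjusted p (edgeR quasi-likelihood test, Benjamini-Hochberg over all 17344 genes) under 0.01 with at least a 1.5-fold difference. For the 3-way test over all groups, HFD had also to be the highest or lowest group, and the difference is that of HFD from the mean of the 3 group means. The HFD vs Control and HFD+Mino vs HFD comparisons share the 3 HFD samples, so their values are not independent of each other and are set side by side only.

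Some punches stood apart in their content. The 7 PVN neuron markers (Avp, Oxt, Crh, Trh, Sim1, Otp, Pou3f2) summed to 39.1, 947 and 2577 CPM in the Control samples, to 2504, 3234 and 3764 CPM in the HFD samples, and to 37761, 31989 and 3111 CPM in the HFD+Mino samples. In Control replicate 1 some of these markers were nearly absent, with Avp at 0.149 CPM, Oxt and Sim1 at 0.770 CPM each and Otp at 0 counts. Trh was low there as well, at 5.49 CPM against 324 and 314 CPM in the other Control samples. Those samples held Crh at 18.04 and 52.6 CPM and Pou3f2 at 15.3 and 13.95 CPM. Crh and Pou3f2 were not absent from Control replicate 1, at 20.6 and 11.4 CPM. The same sample held the most oligodendrocyte RNA, 30643 CPM over 11 markers against 3921 and 6178 CPM in the other Control samples, 2793 to 7172 CPM in the HFD samples and 2427 to 6166 CPM in the HFD+Mino samples. Summed microglia markers were 437 to 773 CPM in Control, 564 to 597 CPM in HFD and 705 to 919 CPM in HFD+Mino, oligodendrocyte precursor markers 295 to 807, 355 to 515 and 155 to 308 CPM, and ependymal markers 21.6 to 190, 218 to 387 and 399 to 826 CPM, so that HFD and HFD+Mino did not overlap in any of these lists. HFD and HFD+Mino overlapped in the sums of the neuron, PVN neuron, oligodendrocyte, endothelial and mural, tanycyte and choroid plexus lists. For single genes, 23.3% of all tested genes had every HFD+Mino sample above every HFD sample, and 23.5% had every one below. Of the 13 microglia and 8 ependymal markers none was called in any of the tests, while 3 of 7 oligodendrocyte precursor markers (Cspg4, Gpr17 and C1ql1) and 2 of 11 endothelial and mural markers (Kdr and Pdgfrb, lower in HFD+Mino than in HFD by log2 differences of -2.16 and -1.57) were called. All genes gave 1.98% called higher and 2.16% called lower in HFD+Mino vs HFD. The summed level of the 31 astrocyte genes varied less, from 16409 to 21712 CPM in Control, 16858 to 18127 CPM in HFD and 17762 to 23477 CPM in HFD+Mino, with overlapping ranges in the 3 groups. Most of this sum was Apoe, Aldoc, Ndrg2 and Clu, with means of 4803, 3440, 2556 and 2222 CPM in Control. It therefore does not describe the less abundant members. Because the punches were bulk tissue, fewer astrocytes and less RNA per astrocyte cannot be told apart. The part of tissue content in the differences below was not tested.

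**Figure D1:**
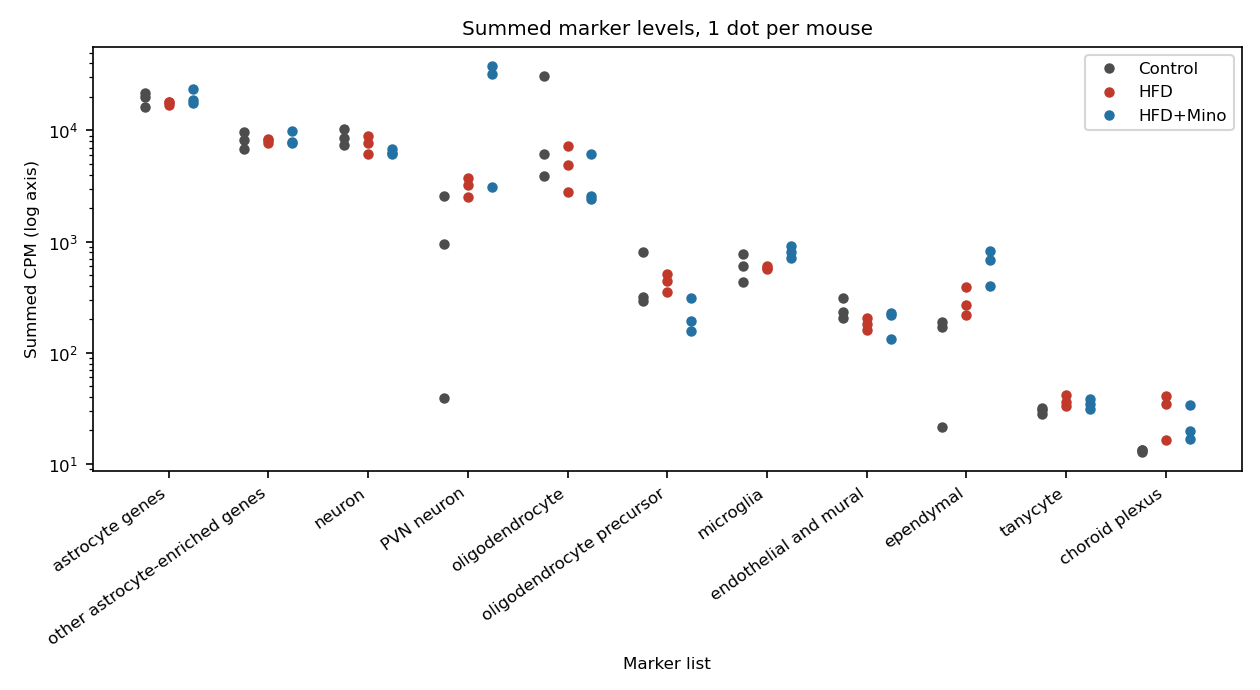
Summed CPM (log axis) of the astrocyte genes and of marker lists of other cell types, 1 dot per mouse, coloured by group. The astrocyte genes spanned 16409 to 23477 CPM over the 9 samples, while the PVN neuron markers spanned 39.1 to 37761 CPM. Most of the astrocyte sum was Apoe, Aldoc, Ndrg2 and Clu.

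Of the 31 members, Sox9 and Bmpr1b were called in the 3-way test, both highest in HFD. All genes gave 0.917% called with HFD highest and 1.21% with HFD lowest. Sox9 alone was called in HFD vs Control, where 0.317% of all genes were called higher and 1.42% lower. In HFD+Mino vs HFD both Sox9 and Bmpr1b were called lower, beside 1.98% of all genes called higher and 2.16% lower. No member was called in HFD+Mino vs Control, where the share of all genes called was 0% higher and 0% lower. In that comparison edgeR gave 9 members and 3697 of all genes an unadjusted p under 0.05, and DESeq2 called 0 members and 276 of all genes.

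Sox9 encodes the SRY-box transcription factor that marks astrocytes in the adult brain (Entrez 20682, chr11:112782224-112787760 in GRCm38). Its levels were 32.1, 37.1 and 44.7 CPM in Control, 100.4, 107 and 105 CPM in HFD, and 22.2, 32.8 and 34.4 CPM in HFD+Mino. All 3 HFD samples lay above all 6 others, and the Control and HFD+Mino samples overlapped. The HFD mean of 104 ± 3.31 CPM (SD, n = 3) was 2.74-fold that of Control, 37.97 ± 6.34 CPM (log2 difference 1.46 ± 0.23 SE, edgeR adjusted p = 0.0047). Under minocycline the mean was 29.8 ± 6.61 CPM, 3.50-fold below HFD (log2 difference -1.81 ± 0.23 SE, edgeR adjusted p = 0.0018). The HFD+Mino mean differed from Control by a log2 difference of -0.35, which did not pass the test. Without Control replicate 1 the HFD vs Control difference was 1.35 (edgeR adjusted p = 0.0231) and the call was lost, as it was without Control replicate 2 (1.45, adjusted p = 0.0377), when the 3-way call was lost too (adjusted p = 0.0116). Leaving out HFD replicate 1, 2 or 3 kept the HFD+Mino vs HFD difference between -1.84 and -1.78 with adjusted p of 0.0121, 0.0145 and 0.0173, so that this call, and each of the other calls of Sox9 and Bmpr1b, needed all 3 HFD samples.

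Bmpr1b encodes a type I receptor for bone morphogenetic proteins (Entrez 12167, chr3:141837136-142169425). It was the least abundant member per length, at 2.13 CPM per kb of exon in Control. The 3 Control samples held 10.4, 12.7 and 15.01 CPM, the HFD samples 25.2, 25.9 and 27.8 CPM, and the HFD+Mino samples 9.72, 10.3 and 7.73 CPM. HFD again stood above all 6 others with no overlap. Its 3-way difference was 0.85 (edgeR adjusted p = 0.0080). Against Control the HFD level was 2.07-fold higher (log2 difference 1.05 ± 0.24 SE), short of the threshold at an adjusted p of 0.0286. Against HFD the HFD+Mino level fell by 1.51 ± 0.24 SE on the log2 scale, 2.85-fold (adjusted p = 0.0048). The 3-way call was lost when the trend of the differences with exon length was removed (difference 0.74, adjusted p = 0.0144), and the call against HFD was kept there (-1.29, adjusted p = 0.0090). Without HFD+Mino replicate 1 the difference from HFD was -1.54 with an adjusted p of 0.0213, and without Control replicate 2 it was -1.53 with an adjusted p of 0.0129. Its 3-way call was lost without either of these samples as well (adjusted p = 0.0229 and 0.0251).

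**Figure D2:**
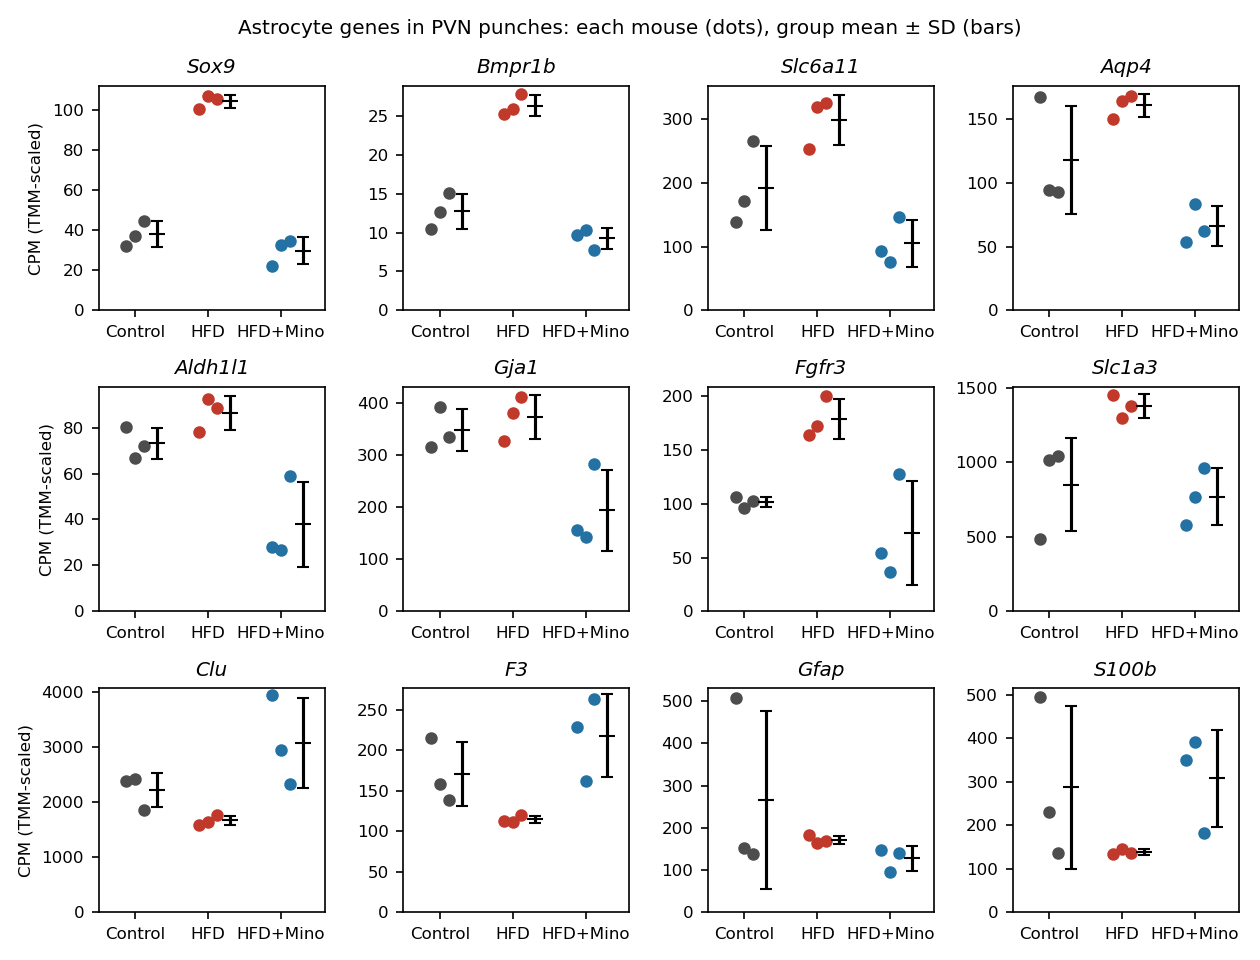
CPM of 12 astrocyte genes in each mouse (dots) with the group mean ± SD (bars, n = 3). For Sox9 and Bmpr1b the 3 HFD dots sit above the 6 others, and for Clu and F3 they sit below them.

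Across all members the 3 HFD samples lay outside the range of the 6 others for 8 genes. They were above for Mlc1, Slc1a3, Fgfr3, Bmpr1b and Sox9, 5 of 31 where 13.4% of all tested genes were, and below for Ndrg2, Clu and F3, 3 of 31 where 9.62% of all tested genes were. The HFD+Mino samples were all below the HFD samples for 12 members and all above for 5, beside 23.5% and 23.3% of all genes. At a looser adjusted p under 0.05, with at least 1.5-fold, HFD+Mino vs HFD gave 7 members lower (Aqp4, Gja1, Slc6a11, Aldh1l1, Fgfr3, Bmpr1b, Sox9) and 2 higher (Clu, F3), and all genes gave 12.9% lower and 14.6% higher. The median difference over the 31 members was 0.13 in HFD vs Control (19 members above 0, median of all genes 0.00), -0.32 in HFD+Mino vs HFD (13 above 0, all genes 0.01) and -0.14 in HFD+Mino vs Control (12 above 0, all genes -0.02). The spread between mice was smallest in HFD, with a median coefficient of variation over members of 6.24%, against 17.6% in Control and 24.7% in HFD+Mino. All tested genes showed the same order of groups, at 14.9%, 24.8% and 35.9%.

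Deviations of same-numbered Control and HFD+Mino samples correlated weakly (0.135, 0.163 and 0.292), and a fit that blocked on this number called more members. The block was chosen from these same counts, so its calls are given as a description only. From replicate 1 to 3, summed PVN neuron markers rose in Control (39.1 to 2577 CPM) and fell in HFD+Mino (37761 to 3111 CPM). Summed microglia markers fell in both (773 to 437 and 919 to 705 CPM). Whether the numbers mark true pairs was not tested. With this block 11 members were called in HFD+Mino vs HFD. Lower were Aqp4, Gja1, Slc1a3, Slc6a11, Aldh1l1, Fgfr3, Bmpr1b and Sox9, with adjusted p from 0.000148 to 0.0060, and higher were S100b, Clu and F3, with adjusted p from 0.0021 to 0.0041. All genes gave 12.7% lower and 12.9% higher in that fit. With the length trend of all genes removed from it as well, 8 members were called lower and 0 higher, so that S100b, Clu and F3 all lost their calls, and S100b its call in the 3-way test. The 3-way test with the block called Slc6a11, Fgfr3, Bmpr1b and Sox9 with HFD highest and S100b with HFD lowest, where all genes gave 7.76% and 5.40%. HFD vs Control still gave Sox9 alone.

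**Figure D3:**
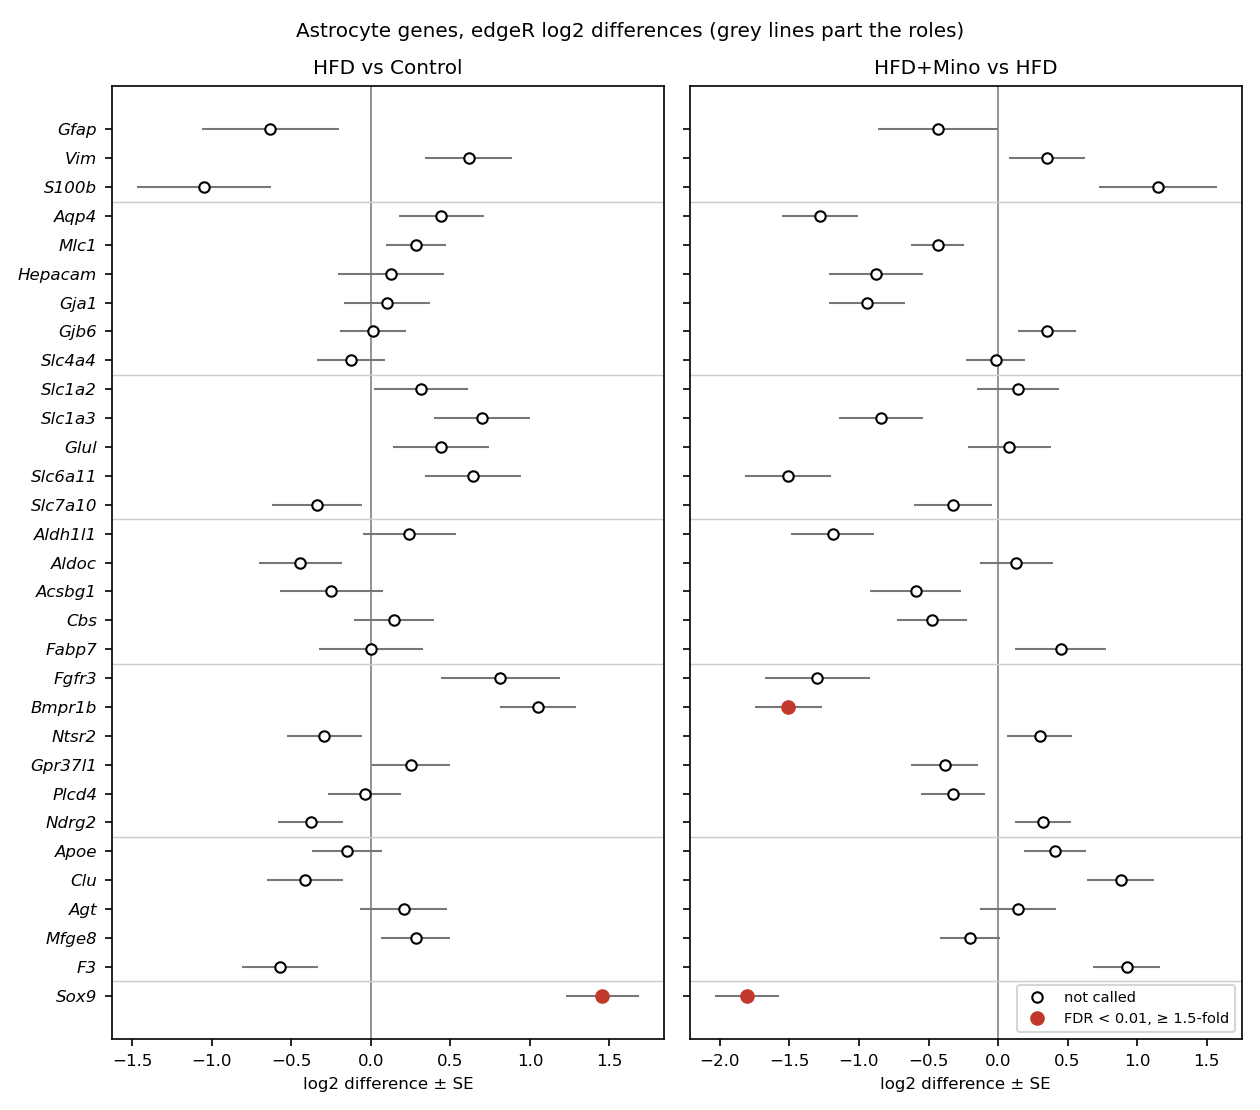
Log2 differences ± SE of the 31 astrocyte genes, ordered by role, in HFD vs Control and HFD+Mino vs HFD (edgeR, n = 3 per group), with filled points for the called genes. Sox9 is filled in both panels and Bmpr1b in the HFD+Mino vs HFD panel.

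None of the 3 cytoskeletal and calcium-binding members was called. Gfap, the intermediate filament protein that defines reactive astrocytes, stood at 508, 152 and 139 CPM in Control, 183, 164 and 168 CPM in HFD, and 147, 94.9 and 141 CPM in HFD+Mino. Control replicate 1, the sample rich in oligodendrocyte RNA, was far above the other Control samples. With it the HFD vs Control difference was -0.63 ± 0.43 SE (edgeR adjusted p = 0.439), and without it 0.24 (adjusted p = 0.801). All 3 HFD+Mino samples were below all 3 HFD samples, with a difference of -0.43 that did not pass the test.

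S100b encodes a calcium-binding protein that oligodendrocytes also make. It showed 496, 230 and 136 CPM in Control, 133, 146 and 137 CPM in HFD, and 350, 391.8 and 183 CPM in HFD+Mino. HFD+Mino was above HFD in every sample (1.15 ± 0.42 SE, adjusted p = 0.0634), a difference of 0.12 (adjusted p = 0.829) with the length trend of all genes removed, and Control replicate 1 was again the highest. Vim, the other filament gene of reactive astrocytes, was at 14.01 to 18.2 CPM in Control, 24.6 to 26.7 CPM in HFD and 20.2 to 40.3 CPM in HFD+Mino. Its HFD vs Control difference of 0.62 had an adjusted p of 0.234, and its HFD+Mino vs Control difference of 0.97 an adjusted p of 0.132.

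Of the 6 water, ion and gap junction genes none was called. Aqp4, the water channel of astrocyte endfeet, stood at 167, 94.4 and 92.8 CPM in Control, 150.2, 164 and 168 CPM in HFD, and 53.4, 83.1 and 62.0 CPM in HFD+Mino. The HFD+Mino samples were below every HFD sample (-1.28 ± 0.27 SE, 2.43-fold, adjusted p = 0.0118) and below every Control sample (-0.84, adjusted p = 0.143). Mlc1, which with Hepacam forms the endfoot complex mutated in megalencephalic leukoencephalopathy, was at 348, 407 and 348 CPM in Control, 451, 460 and 433 CPM in HFD, and 319, 306 and 368 CPM in HFD+Mino. HFD was above all others, by 0.29 from Control (adjusted p = 0.422). Hepacam itself was at 67.7 to 133 CPM in Control, 94.4 to 107 CPM in HFD and 39.4 to 84.6 CPM in HFD+Mino (-0.88 from HFD, adjusted p = 0.0735).

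The connexins that couple astrocytes differed from each other. Gja1 (connexin 43) was at 316 to 392.4 CPM in Control, 326 to 410 CPM in HFD and 156, 142 and 283 CPM in HFD+Mino, below HFD in every sample (-0.94 ± 0.27 SE, adjusted p = 0.0283). Gjb6 (connexin 30) had HFD+Mino vs HFD and HFD vs Control differences of 0.35 and 0.01, neither past the test. For Slc4a4, the sodium bicarbonate cotransporter, the 2 differences were -0.01 and -0.13.

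Uptake and recycling of transmitters rests on 5 members. Their summed level was 1587, 1855 and 1806 CPM in Control, 2478, 2473 and 2668 CPM in HFD, and 1758, 1780 and 1821 CPM in HFD+Mino, and no single one of the 5 was called. The sum was highest in HFD mainly through Slc1a3, and did not describe all 5, since the mean of Slc7a10 was highest in Control and those of Slc1a2 and Glul in HFD+Mino. Slc1a3, the glutamate transporter GLAST, was at 488, 1017 and 1042 CPM in Control, 1455, 1295 and 1381 CPM in HFD, and 577, 769 and 961 CPM in HFD+Mino. Its differences were 0.70 ± 0.30 SE in HFD vs Control (adjusted p = 0.220) and -0.84 ± 0.30 SE in HFD+Mino vs HFD (adjusted p = 0.0593). Without Control replicate 1 the first was 0.42.

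Slc1a2, the glutamate transporter GLT-1, did not follow this pattern. Its samples held 442, 327 and 232 CPM in Control, 371, 388 and 484 CPM in HFD, and 522, 551 and 302 CPM in HFD+Mino, with the groups overlapping and differences of 0.31 and 0.15. Slc6a11, the GABA transporter GAT-3, stood at 138, 171 and 266 CPM in Control, 254, 319 and 325 CPM in HFD, and 93.8, 75.7 and 146 CPM in HFD+Mino. HFD+Mino was below HFD in every sample (-1.51 ± 0.31 SE, 2.84-fold, adjusted p = 0.0103), just over the threshold. Glul, the glutamine synthetase, gave differences of 0.44 and 0.08, and Slc7a10, an exchanger of serine and other small amino acids, -0.34 and -0.32, none of them past the test.

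Metabolic members were not called. Aldh1l1, the folate enzyme used to mark astrocytes, was at 80.5, 66.9 and 72.1 CPM in Control, 78.1, 92.5 and 88.7 CPM in HFD, and 27.9, 26.7 and 59.0 CPM in HFD+Mino. The HFD+Mino samples were lowest throughout, by -1.19 ± 0.30 SE from HFD (2.28-fold, adjusted p = 0.0174) and -0.95 from Control (adjusted p = 0.139). Aldoc, the brain aldolase, was the second most abundant member per length at 1054 CPM per kb in Control, and its differences were -0.44 and 0.13. Acsbg1, an acyl-CoA synthetase, gave -0.25 and -0.59, Cbs, which makes cystathionine, 0.15 and -0.48, and Fabp7, the brain lipid-binding protein, 0.00 and 0.45.

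Receptors and signalling proteins apart from Bmpr1b were not called. Fgfr3, a fibroblast growth factor receptor, was at 106, 96.4 and 103 CPM in Control, 164, 173 and 199.97 CPM in HFD, and 54.0, 36.5 and 127 CPM in HFD+Mino. HFD lay above all 6 others, by 0.81 ± 0.37 SE from Control (adjusted p = 0.247), and HFD+Mino was lower by -1.30 ± 0.38 SE (adjusted p = 0.0286). The highest HFD+Mino sample was replicate 3. Its summed neuron, PVN neuron, oligodendrocyte, tanycyte and choroid plexus markers lay within the range of the HFD samples. Its summed oligodendrocyte precursor, microglia, ependymal, and endothelial and mural markers lay outside it. Whether tissue content bears on this Fgfr3 value was not tested. The exons of Fgfr3, Aldh1l1, Slc7a10 and Plcd4 overlap genes on the opposite strand over 13.9%, 11.1%, 17.9% and 29.8% of their length. The library kits do not mark strand, so strand cannot assign the reads there to a single gene. Ndrg2, a member of the N-myc downstream-regulated family, was at 2735, 2776 and 2159 CPM in Control, 1874, 1979 and 2048 CPM in HFD, and 2714, 2273 and 2397 CPM in HFD+Mino, with HFD below all others and differences of -0.38 and 0.32. Ntsr2 gave -0.29 and 0.30, Gpr37l1 0.25 and -0.38, and Plcd4 -0.04 and -0.32.

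Secreted and cell-surface members were not called. Apoe, the main lipid carrier of the brain, led all 31 genes at 2246 CPM per kb in Control, with samples at 5382, 4836 and 4191 CPM in Control, 4377, 4732 and 3874 CPM in HFD, and 6990, 4876 and 5396 CPM in HFD+Mino (differences of -0.15 and 0.41, neither past the test). Clu, the chaperone clusterin, was at 2383, 2420 and 1864 CPM in Control, 1591, 1647 and 1767 CPM in HFD, and 3955, 2942 and 2324 CPM in HFD+Mino. HFD was below all others, and HFD+Mino exceeded it by 0.88 ± 0.24 SE (1.84-fold, adjusted p = 0.0231).

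F3, the tissue factor that starts coagulation, was at 215, 158 and 139 CPM in Control, 113, 112 and 120 CPM in HFD, and 229, 162 and 263 CPM in HFD+Mino. HFD was again below all others (-0.57 ± 0.24 SE from Control, adjusted p = 0.207), and HFD+Mino exceeded HFD by 0.93 ± 0.24 SE (1.90-fold, adjusted p = 0.0201). Agt, which encodes angiotensinogen, gave differences of 0.21 and 0.14, and Mfge8, an eat-me signal that bridges dying cells to phagocytes, 0.28 and -0.20.

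**Figure D4:**
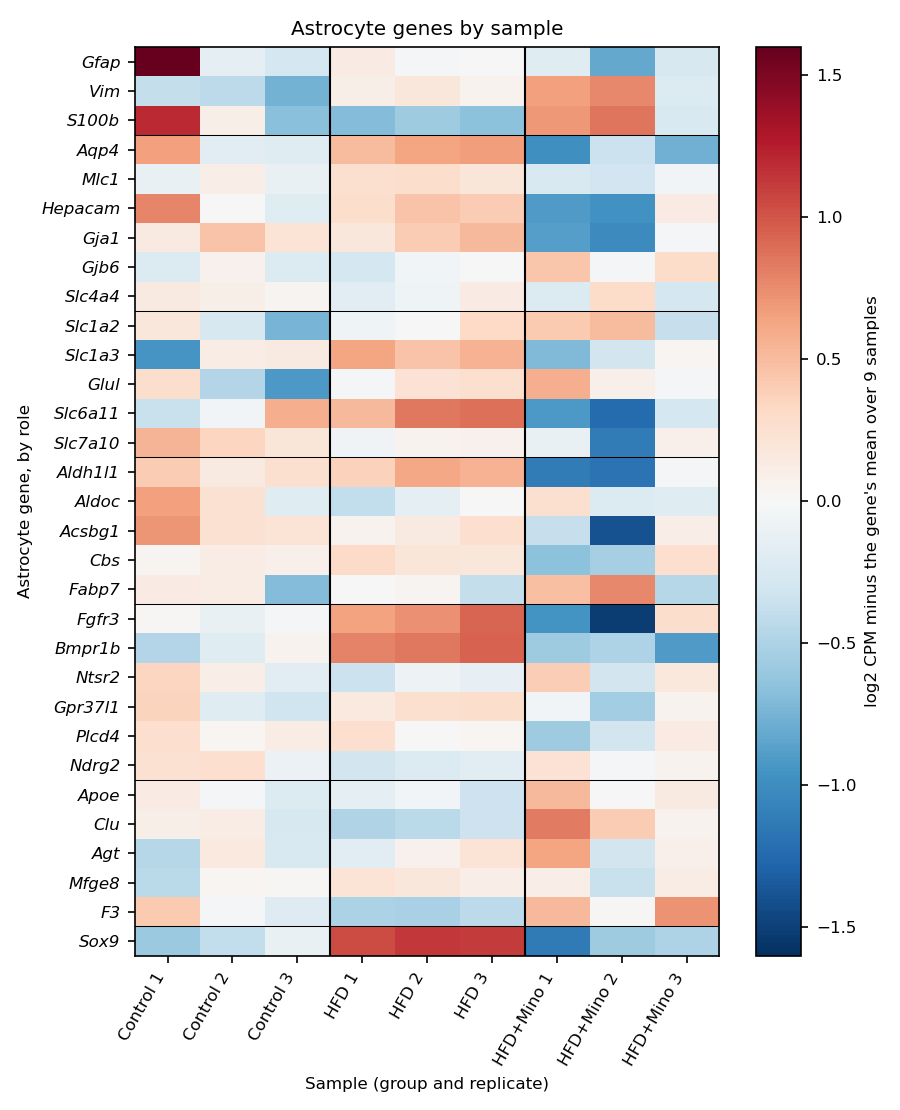
Log2 CPM of each astrocyte gene in each sample minus that gene's mean over the 9 samples, ordered by role, with black lines between groups and between roles. Sox9 and Bmpr1b are high in the 3 HFD samples, and Gfap and S100b are highest in Control replicate 1.

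The sign of the differences varied with exon length. Exon length here is the union of the exons of all annotated transcripts of a gene, not the length of a single transcript. Over the 31 members the Spearman correlation of the log2 difference with exon length was 0.457 in HFD vs Control and -0.538 in HFD+Mino vs HFD, beside 0.318 and -0.489 over the 15625 tested genes with a length. Genes are not independent replicates, so both values are given as a description. Of the 15 longer members 12 were above 0 in HFD vs Control (median 0.31) and 2 in HFD+Mino vs HFD (median -0.84). Of the 16 shorter ones 7 were above 0 (median -0.20) and 11 were above 0 (median 0.22) in those comparisons. Aqp4, Gja1, Fgfr3, Slc1a3 and Slc6a11 are on the long side, S100b, F3 and Clu on the short side, and Sox9, with 4135 nt of exon, is among the longer ones but near the members' median of 3604 nt. With the length trend of all genes removed, Sox9 differed by 1.499 in HFD vs Control (adjusted p = 0.0042) and by -1.82 in HFD+Mino vs HFD (adjusted p = 0.0021), and the member medians were 0.21 and -0.44. In HFD+Mino vs HFD this removal brought S100b from 1.15 to 0.12, F3 from 0.93 to 0.47, Ndrg2 from 0.32 to 0.13, Gja1 from -0.94 to -0.54 and Slc1a3 from -0.84 to -0.50, while Mlc1 went from -0.43 to -0.80 and Slc1a2 from 0.15 to 0.54. What made the differences vary with length was not tested.

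**Figure D5:**
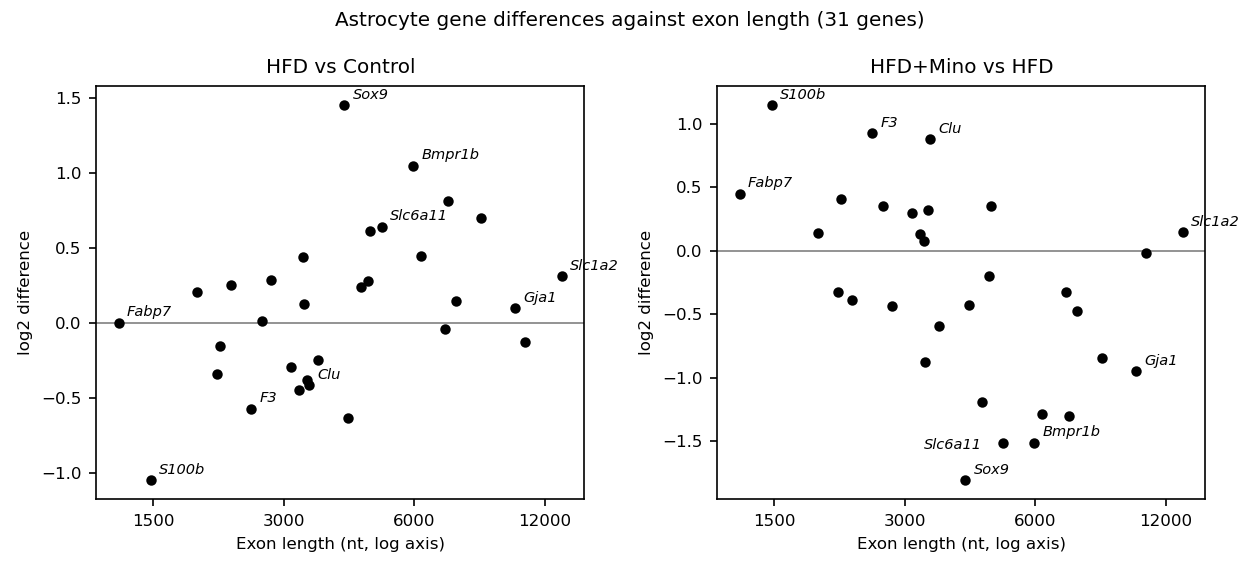
Log2 difference of each of the 31 astrocyte genes against its exon length (nt, log axis) in HFD vs Control and HFD+Mino vs HFD, with some genes named. Longer genes tend to lie higher in the first panel (Spearman 0.457) and lower in the second (-0.538).

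Among 40 further astrocyte-enriched genes listed for comparison, HFD vs Control called Tril and Rorb higher and Id4 lower, and HFD+Mino vs HFD called Tril, Rorb and Lgi4 lower and Id4 higher. All genes gave 0.317% higher and 1.42% lower in the first comparison, and 1.98% higher and 2.16% lower in the second. Tril encodes a toll-like receptor accessory protein and gave differences of 1.28 and -1.55 (adjusted p = 0.0066 and 0.0026). Rorb, a nuclear receptor, gave 1.58 and -1.41 (adjusted p = 0.0022 and 0.0041). Id4, an inhibitor of basic helix-loop-helix factors, went the other way at 79.6, 139 and 158 CPM in Control, 18.9, 18.4 and 23.5 CPM in HFD, and 85.8, 109 and 224 CPM in HFD+Mino, with differences of -2.63 and 2.78 (adjusted p = 0.0030 and 0.0026). The median of the 40 was -0.11 in HFD vs Control and -0.13 in HFD+Mino vs HFD. Over the alternatives tried, the count of 4 in HFD+Mino vs HFD ranged from 0 without any 1 of the HFD samples to 19 with the replicate block, that of 3 in the 3-way test from 0 to 9 and that of 3 in HFD vs Control from 0 to 4. Without Control replicate 2 the 3 counts were 2, 0 and 0.

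Markers of reactive astrocytes were mostly not called. Of 13 tested genes of the general reactive list, Nes, which encodes the filament protein nestin, was called in both comparisons, at 1.75 to 2.62 CPM in Control, 8.04 to 10.3 CPM in HFD and 1.48 to 3.15 CPM in HFD+Mino (differences of 2.07 and -1.96, adjusted p = 0.0091 and 0.0085). Nestin also marks endothelial and precursor cells. None of the 12 tested genes of the A1 list, induced by inflammation, and none of the 10 tested genes of the A2 list, induced by ischemia, was called. All genes gave 0.317% higher and 1.42% lower in HFD vs Control, and 1.98% higher and 2.16% lower in HFD+Mino vs HFD. At such shares few or no calls fall in lists this short, so the counts say little about reactive genes. The general list summed to 162 to 194 CPM in Control, 219 to 238 CPM in HFD and 159 to 161 CPM in HFD+Mino. The sum was highest in HFD mainly through Stat3, with means of 73.8, 118 and 55.7 CPM in Control, HFD and HFD+Mino. It did not describe the whole list, since the mean of Serpina3n was lowest in HFD (51.7, 40.5 and 54.6 CPM). Of its 13 tested genes 7 were above 0 in HFD vs Control. HFD lay above all 6 others for Nes and Stat3, as it did for 13.4% of all tested genes. Stat3 was not called, with differences of 0.68 and -1.08 (edgeR adjusted p = 0.114 and 0.0113). The A1 sum was 287 to 295 CPM in Control, 257 to 275 CPM in HFD and 297 to 423 CPM in HFD+Mino, and the A2 sum 88.2 to 121, 107 to 156 and 151 to 474 CPM. The A2 sum rested mainly on S100a10 (means of 33.8, 31.2 and 135 CPM) and Tm4sf1 (54.8, 80.9 and 164 CPM).

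Transcription factors and signalling genes of astrocyte fate, 15 in all, gave 1 higher and 2 lower in HFD vs Control. All genes gave 0.317% higher and 1.42% lower there, and 7 of the 15 had a difference above 0. Nfia, which acts with Sox9, was at 16.4 to 22.3 CPM in Control, 43.9 to 55.1 CPM in HFD and 16.2 to 18.4 CPM in HFD+Mino, with differences of 1.36 and -1.46 (adjusted p = 0.0052 and 0.0039). Other NFI and SOX factors of the list did not share its HFD vs Control difference, with Nfib at 0.19, Nfix at -0.60 and Sox2 at -0.99, none called. Olig2, a factor of the oligodendrocyte lineage, was lower in HFD by a log2 difference of -3.30 (adjusted p = 0.0036), and Smad4, which carries bone morphogenetic protein signals into the nucleus, by -2.30 (adjusted p = 0.0040). Id1, a target of those signals, was higher in HFD+Mino than in HFD by 2.22 (adjusted p = 0.0095). Among oligodendrocyte precursor markers, Cspg4 was called higher in HFD than in Control (1.62) and lower in HFD+Mino than in HFD (-1.71), the same signs as Sox9. Gpr17 was called lower in HFD+Mino than in HFD (-2.25), with 1.63 in HFD vs Control (adjusted p = 0.0122), while C1ql1 had the opposite signs (-4.67 and 3.90).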

How the data were processed

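Gene counts from PVN punches of 9 mice were analysed, with groups and replicate numbers taken from the sample titles. The authors aligned reads with HISAT2 to mm10 and deposited featureCounts counts per gene, not normalized, and their notes also name edgeR. Tool versions, the strand setting and the treatment of reads with several positions are not given in the sources used here. Libraries were made with the SMARTer Ultra Low Input and Nextera XT kits, which do not mark strand. Counts were filtered by filterByExpr, scaled by TMM and fitted to all 9 samples with the group as the only term in edgeR 4.0.16 (R 4.3.3), as a quasi-likelihood model with Benjamini-Hochberg adjustment over 17344 genes. DESeq2 1.42.0, the edgeR likelihood ratio test, other scaling, filters and thresholds, replicate blocks, removal of length or GC trends (fits with both trend and block were added after seeing the data), fits of 6 samples and leaving out each sample were tried as alternatives. Tables and figures used pandas 2.3.3 and matplotlib 3.10.9 in Python 3.11.15.

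Exon lengths and gene positions came from GENCODE M21 (GRCm38) for 21572 genes, all 31 members included, and promoter windows from RefSeq GRCm38.p6. The members and all lists were chosen with earlier results of these data known. Values in every sample are given for members called in any test, for members whose HFD samples lie outside the range of the others, and for the markers Gfap, Aqp4, Aldh1l1, S100b, Slc1a2 and Slc1a3. Sample values of Apoe, Slc6a11, Gja1 and Id4, which are outside that rule, were added after they were seen. Each list of other genes gave at most its 5 called genes of smallest p. Stat3, Nfib, Nfix and Sox2, which were not called, were added after they were seen. Of the reactive lists, Lcn2, Clcf1 and Tgm1 had too few counts to be tested.

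No 2 replicates agreed within sampling noise, with chi-square values over genes of 21.0 to 316 per degree of freedom. The deviations of same-numbered samples from their group means correlated at 0.135, 0.163 and 0.292 between Control and HFD+Mino, and at -0.152 to -0.006 between HFD and the others, so the number was taken to pair Control with HFD+Mino samples. This pairing comes from the counts and is not stated in the labels. Control and HFD+Mino samples of different number correlated at -0.162 to 0.0255. Deviations from a group mean sum to 0 within the group. These values are therefore tied to those of the same-numbered samples and are not separate evidence for the pairing. Control replicate 2 and HFD replicate 1, which share no number, correlated at 0.167. How readily such correlations arise by chance was not tested. The labels number the HFD samples 1 to 3 in the titles but 3 to 5 in the column names of the table. The titles were used, and the block in all 3 groups rests on that choice. By the column names only HFD replicate 1 shares a number with another group, and it correlated at 0.0385 with Control replicate 3 and at 0.0171 with HFD+Mino replicate 3. Scripts were tested on simulated counts.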

Additional observations from a re-analysis of the deposited data

How the results depend on the processing

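Sox9 kept its direction under each of the 24 alternatives tried for a comparison, between 1.35 and 1.59 in HFD vs Control and between -1.98 and -1.63 in HFD+Mino vs HFD, and Bmpr1b likewise between 0.92 and 1.19 and between -1.71 and -1.29. The alternatives that changed only a threshold reuse the main fit, so their differences could not change. The number of members called moved more, and so did the number over all genes. For HFD+Mino vs HFD, with 2 members and 719 of all genes called, DESeq2, the likelihood ratio test and an adjusted p under 0.05 each gave 9 members (3992, 3314 and 4757 of all genes), no filter on low counts 4 (1905), GC trend removal 5 (1419), the replicate block in Control and HFD+Mino 11 (4441), the block with length trend removal 8, all lower (2701), and the block with GC trend removal 10 (4814). For HFD vs Control, with 1 member and 302 of all genes called, DESeq2, the likelihood ratio test, an adjusted p under 0.05, the block with GC trend removal and the 6-sample fit each gave 2 (617 to 1336 of all genes), and total counts without TMM gave 0 (184). For the 3-way test, with 2 members and 369 of all genes called, the replicate block gave 5 (2283), the block with GC trend removal 5 (2341), and length trend removal 1 (252). In HFD+Mino vs Control, with 0 called, the block with GC trend removal gave 1 (949). The block in all 3 groups gave 2, 1, 3 and 0 in the 4 tests, and Bmpr1b lost its 3-way call there (adjusted p = 0.0117). Leaving out 1 sample gave 0 to 5 called in the 3-way test, 0 to 1 in HFD vs Control, 0 to 9 in HFD+Mino vs HFD and 0 to 4 in HFD+Mino vs Control. The counts of 5, 9 and 4 came without HFD+Mino replicate 3, when all genes gave 2396, 3815 and 1120, and 0 was called in every test without any 1 of the HFD samples, when the calls over all genes also fell, from 719 to between 29 and 59 in HFD+Mino vs HFD. Fewer samples carried each such fit.

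Sign changes were followed for 15 of the 31 members, and the changes listed here are theirs. None of these differences was called in either direction. Over all 31, the members above 0 in HFD+Mino vs HFD went from 13 to 8 with the length trend removed and to 9 without TMM. Without TMM, which lowers the median of all genes to -0.18 in HFD+Mino vs HFD, Slc1a2 became -0.074 there and S100b -0.057 in HFD+Mino vs Control. With the length trend removed, Gja1 became -0.24 and Slc1a2 -0.13 in HFD vs Control, and S100b -0.61 in HFD+Mino vs Control. With the block added these were -0.27, -0.061 and -0.49. Leaving out 1 sample gave Gfap between -0.95 and 0.24 in HFD vs Control, Slc1a2 between -0.0070 and 0.37 in HFD+Mino vs HFD, and in HFD+Mino vs Control S100b between -0.24 and 0.75, Slc1a3 between -0.42 and 0.030 and Ndrg2 between -0.17 and 0.00062. The cause was not tested.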
